A study of Mus musculus with 8 samples.

Results

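The genes described here are 10 components, regulators and responders of the pathway that runs from leukaemia inhibitory factor (LIF) through JAK kinases to STAT3. They were taken by name, 10 of the 37620 genes in the count tables, and were read in all 8 libraries of the series. They are the receptor genes Lifr and Il6st, the kinase gene Jak1, the transcription factor gene Stat3, the feedback genes Socs1, Socs2 and Socs3, and the response genes Pim1, Pim3 and Bcl3.

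LIF binds a receptor made of LIFR and gp130, the product of Il6st, and JAK kinases held on the receptor then phosphorylate STAT3. Phosphorylated STAT3 enters the nucleus and raises transcription of its targets, among them Socs3, whose protein blocks the receptor and its kinases in a negative feedback loop. In mouse embryonic stem cells (mESCs) this pathway is best known for sustaining self-renewal in culture, and a JAK inhibitor blocks it below the receptor.

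Of the 8 libraries, 7 came from R1, a mouse embryonic stem cell line, and 1 from a line in which a fluorescent protein, GFP, reports Cdx2. The R1 mESCs were in serum-containing medium with no feeder cells. The study's methods state this for R1 and do not describe how the reporter line was kept. All 6 mESC libraries had 2i, which is CHIR99021 (3 µM, a GSK3 inhibitor) with PD0325901 (1 µM, a MEK inhibitor). One group had 2i alone (day 5, 1 library), 2iJ added a JAK inhibitor at 2 µM (day 5, 1 library), and 2iJ+B-A added to 2iJ BMP4 at 10 ng/ml and ALK5 inhibitor II at 10 µM (days 2, 5 and 11, 1 library each). The sorted library held GFP-positive cells taken from 2iJ+B-A on day 2. The mesoderm progenitors (meso; 2 libraries) came from embryoid bodies grown in a different medium and re-aggregated with BMP4, Activin A and Wnt3a, and they were collected on day 3 or, on day 4, a day after IWP-2, an inhibitor of Wnt secretion. LIF is not listed among the additions to any of these libraries, and no library tests the JAK inhibitor without 2i.

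Total gene counts were 19810855 in the sorted library and 24532587 to 31453888 in the 7 others. In the sorted library 29.7% of read pairs were unmapped, against 2.17% to 3.85% in the R1 libraries, and 29.6% of its uniquely aligned pairs fell in no annotated gene on the counted strand, against 11.3% to 16.4%. The labelled cell types were checked on their markers. The summed level of 6 pluripotency markers was 3937 to 5974 counts-per-million (CPM) in the 5 unsorted mESC libraries, 3747 CPM in the sorted library and 951 and 96.4 CPM in the day 3 and day 4 mesoderm progenitors. That of 6 mesoderm markers was 582 to 1540 CPM in the mesoderm progenitors and at most 58.7 CPM elsewhere. That of 6 trophectoderm markers was 3813 CPM in the sorted library and 72.1 to 1196 CPM in the unsorted mESC libraries. It was 587 and 318.5 CPM in the day 3 and day 4 mesoderm progenitors, within the range of the unsorted mESC libraries. Most of the sorted sum came from Krt8 (1731 CPM) and Krt18 (1595 CPM), while Elf5 had 0.909 CPM. The pluripotency sum hides differences between its markers in the sorted library. Sox2 had 110 CPM there against 514 to 670 CPM in the unsorted mESC libraries, and Esrrb had 101 against 240 to 423 CPM. Nanog and Zfp42 were also below every unsorted mESC library, while Pou5f1 and Dppa5a were within their range. CPM here is the share of a library's gene counts, and its 95% Wilson interval covers counting error only. A group's days stood in for its replicates, so p-values measure the spread between days, which includes change with time.

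The order of levels was read per kilobase of exon, because longer genes collect more reads. The length was that of all annotated exons of a gene merged, such as 9527 bases for Stat3 and 1972 bases for Pim1. It can exceed the length of the transcript in use, which would understate a gene's level. In 2i, Pim1 was the highest at 53.9 CPM per kilobase, followed by Pim3 at 19.0, Il6st at 16.9, Jak1 at 7.39, Lifr at 6.59 and Socs2 at 4.59. The lower end held Stat3 at 2.85, Bcl3 at 1.72, Socs1 at 0.903 and Socs3 at 0.799 CPM per kilobase. Thus, with this length, receptor, kinase and Pim transcripts were above the transcript of the transcription factor itself, and Socs1, Socs3 and Bcl3 were the scarcest. The spread over the 3 days of 2iJ+B-A showed which neighbours could be ordered. Pim3 (17.95 to 28.9 CPM per kilobase) overlapped Il6st (19.2 to 23.4) and Pim1 (27.5 to 33.4), and Jak1 (8.14 to 10.8) overlapped Lifr (6.27 to 10.1). Stat3 (1.23 to 1.58), Socs1 (0.869 to 1.67) and Socs3 (1.06 to 1.32) overlapped as well. Socs2 (2.02 to 3.35) overlapped none of its neighbours. Bcl3 (0.432 to 0.614) lay below Socs1 and Socs3 in 2iJ+B-A, the reverse of its place in 2i.

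**Figure D1:**
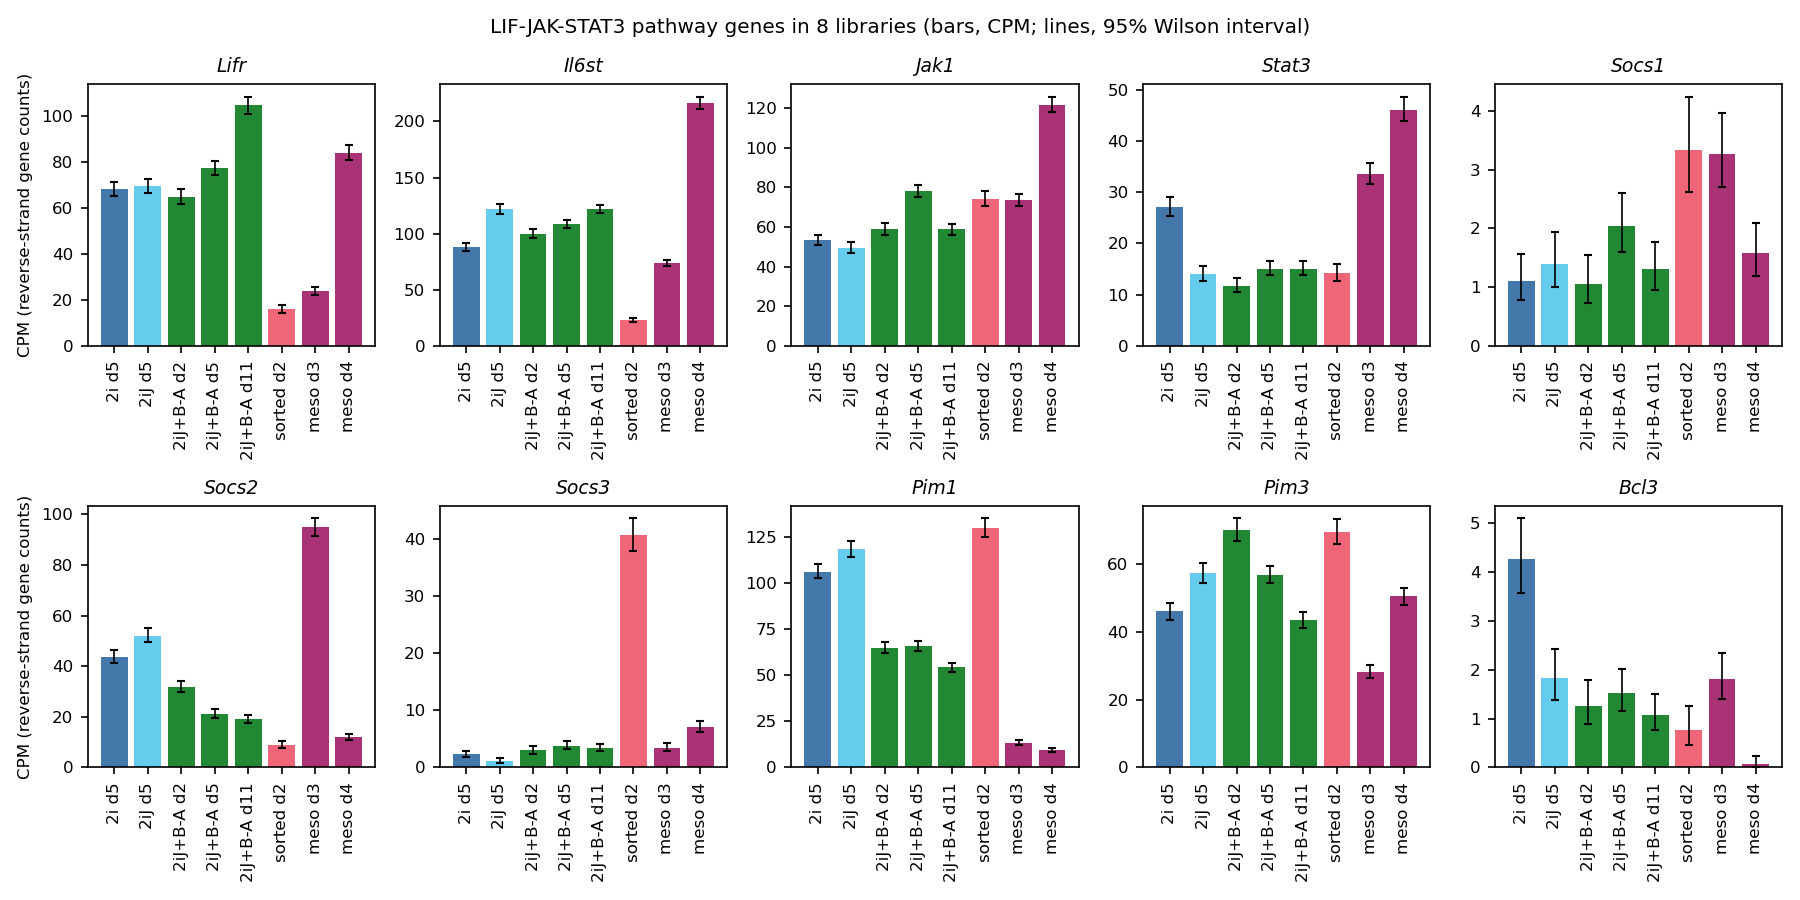
CPM of the 10 genes in each library (bars, 1 library each; lines, 95% Wilson interval of counting error; d, day; each panel has its own axis from 0). Stat3 and Bcl3 are highest among the mESC libraries in 2i (27.1 and 4.26 CPM), Socs3 stands at 40.7 CPM in the sorted library, and Pim1 is at 13.45 CPM or less in both mesoderm progenitor libraries.

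The comparison of 2iJ with 2i asked what a JAK inhibitor does to the pathway's own transcripts in cells kept in 2i. Stat3, Socs3 and Bcl3 were the 3 genes of the 10 with a level at least 1.5-fold lower in 2iJ, and 0 were at least 1.5-fold higher. Over all 16235 genes tested, 5.93% were that much lower and 9.84% that much higher, on CPM plus a pseudocount of 0.1. The median log2 ratio of CPM was 0.09 over the 10 genes and 0.03 over all genes, so the list as a whole was not lower.

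Stat3 (ENSMUSG00000004040; chromosome 11, 100746412 to 100800854, minus strand, NCBIM37) had 764 counts or 27.1 CPM in 2i (Wilson 25.3 to 29.1) and 362 counts or 14.1 CPM in 2iJ (12.7 to 15.6). With BMP4 and ALK5 inhibition added, it had 11.7, 15.1 and 15.1 CPM on days 2, 5 and 11. All 4 unsorted libraries with the JAK inhibitor were thus below 2i, between 11.7 and 15.1 CPM. The ratio of 2i to 2iJ was 1.93 (exact counting interval 1.70 to 2.19). In the edgeR quasi-likelihood test the log2 fold change was -0.97 (SE 0.36, adjusted p = 1). Stat3 was the only gene of the 10 with an unadjusted p under 0.05, and it did not survive the correction over all genes. The gene overlaps Stat5a on the other strand, and the counts are specific to strand.

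Bcl3, which encodes an atypical IκB protein that works with NF-κB subunits in the nucleus, is a LIF-responsive gene in mESCs. Bcl3 (ENSMUSG00000053175; chromosome 7, 20393811 to 20408119, minus strand) had 120 counts or 4.26 CPM in 2i (Wilson 3.57 to 5.10) and 47 counts or 1.83 CPM in 2iJ (1.38 to 2.43). Its 2iJ+B-A values were 1.26 CPM (day 2), 1.53 CPM (day 5) and 1.07 CPM (day 11). As for Stat3, each of the 4 unsorted libraries with the inhibitor was below 2i. Its log2 fold change in 2iJ was -1.24 (SE 0.63, edgeR adjusted p = 1).

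Socs3 (ENSMUSG00000053113; chromosome 11, 117827393 to 117831361, minus strand) encodes the suppressor that binds gp130. It had 65 counts or 2.31 CPM in 2i (1.81 to 2.94) and 31 counts or 1.21 CPM in 2iJ (0.850 to 1.71). Unlike Stat3 and Bcl3 it was above the 2i value in all 3 libraries of 2iJ+B-A, at 3.06, 3.82 and 3.42 CPM on days 2, 5 and 11. Its log2 fold change in 2iJ was -0.96 (SE 0.59, edgeR adjusted p = 1).

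The promoters of these 3 genes are shown because they were the members with a lower level in 2iJ, and because STAT proteins bind the palindrome TTCNNNGAA. Each line is the 250 bases before the most upstream coding transcript start, 5′ to 3′ on the gene's own strand, read from NCBIM37 with GENCODE starts, and capitals mark a match. The windows are chr11:117830501-117830750 for Socs3, chr11:100800855-100801104 for Stat3 and chr7:20408120-20408369 for Bcl3, all on the minus strand.
Socs3: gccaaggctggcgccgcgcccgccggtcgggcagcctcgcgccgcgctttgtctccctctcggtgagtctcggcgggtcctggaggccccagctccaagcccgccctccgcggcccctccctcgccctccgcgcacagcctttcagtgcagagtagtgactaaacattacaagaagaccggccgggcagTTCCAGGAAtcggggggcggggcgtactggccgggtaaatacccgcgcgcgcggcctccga
Stat3: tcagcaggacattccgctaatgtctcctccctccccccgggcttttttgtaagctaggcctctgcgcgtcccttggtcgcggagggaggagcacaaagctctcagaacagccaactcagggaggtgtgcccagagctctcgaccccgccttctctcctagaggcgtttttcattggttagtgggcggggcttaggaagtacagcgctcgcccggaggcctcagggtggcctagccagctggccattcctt
Bcl3: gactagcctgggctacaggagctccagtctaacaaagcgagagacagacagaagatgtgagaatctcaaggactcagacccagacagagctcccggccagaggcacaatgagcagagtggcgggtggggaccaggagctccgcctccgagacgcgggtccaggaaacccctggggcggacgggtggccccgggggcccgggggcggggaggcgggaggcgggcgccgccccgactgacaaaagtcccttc
The match in Socs3 lies 61 to 53 bases before the start and also meets the tighter form TTCCNGGAA. Both forms read the same on either strand, and every match of the tighter form is also a match of the wider one. Of the 10 pathway genes 1 had a match in its window, and over all 22751 coding genes the share was 6.84% for TTCNNNGAA and 0.941% for the tighter form. Stat3 and Bcl3 had none in these windows, which says nothing of sites elsewhere.

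The other 7 genes differed less between 2iJ and 2i. Il6st had 88.1 CPM in 2i and 122 CPM in 2iJ (log2 fold change 0.45, SE 0.24, edgeR adjusted p = 1), and it was the only one of the 10 genes that was above 2i in all 4 unsorted libraries with the inhibitor. Lifr, its partner in the LIF receptor, had 68.0 and 69.5 CPM, a log2 fold change of 0.01 (SE 0.35). The transcripts of the receptor were therefore present at similar or higher CPM under the inhibitor. Jak1, which encodes a kinase of the family that the inhibitor targets, had 53.4 and 49.5 CPM (log2 fold change -0.13, SE 0.28). Pim1 and Pim3, which encode serine/threonine kinases that promote survival, had log2 fold changes of 0.13 (SE 0.24) and 0.29 (SE 0.37). Socs1 and Socs2, which encode other members of the suppressor family, had 0.32 (SE 0.74) and 0.23 (SE 0.42). All 7 estimates lay within 2 SEs of 0, as did those of Bcl3 and Socs3, while that of Stat3 did not. An adjusted p of 1 does not show that the levels are alike.

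When all 4 unsorted libraries with the JAK inhibitor were set against 2i, the estimates for Stat3 and Bcl3 became more precise but still failed the correction. That contrast took the mean of the fitted 2iJ and 2iJ+B-A levels. The single 2iJ library thus weighed as much as all days of 2iJ+B-A together. The 2iJ+B-A libraries also had BMP4 and ALK5 inhibitor, so the contrast is not one of the JAK inhibitor alone. The log2 fold change was -1.01 for Stat3 (SE 0.28, edgeR adjusted p = 0.95) and -1.53 for Bcl3 (SE 0.48, adjusted p = 0.95), each with an unadjusted p under 0.05. Socs3 was at -0.24 (SE 0.47), and no other gene of the 10 had an unadjusted p under 0.05. The share of all genes below 2i in all 4 libraries was 18.3%, and above it 27.6%, so 2 of 10 genes below and 1 of 10 above are near or under that background. These libraries share the single 2i library, so a deviation of that library alone would appear in each of these values.

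Few genes of any kind passed in these comparisons. In 2iJ against 2i, edgeR and DESeq2 each called 0 of 16235 genes (0% called), and edgeR gave 141 genes, 0.868%, an unadjusted p under 0.05. That share is smaller than the 0.05 that chance alone would give. The edgeR test was thus strict for these 2 single libraries, and the lack of calls does not show that little changed. With 4 libraries against 1, edgeR called 0% (lowest adjusted p = 0.266; 827 genes at an unadjusted p under 0.05) and DESeq2 called 87 genes, 0 of them from the 10.

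**Figure D2:**
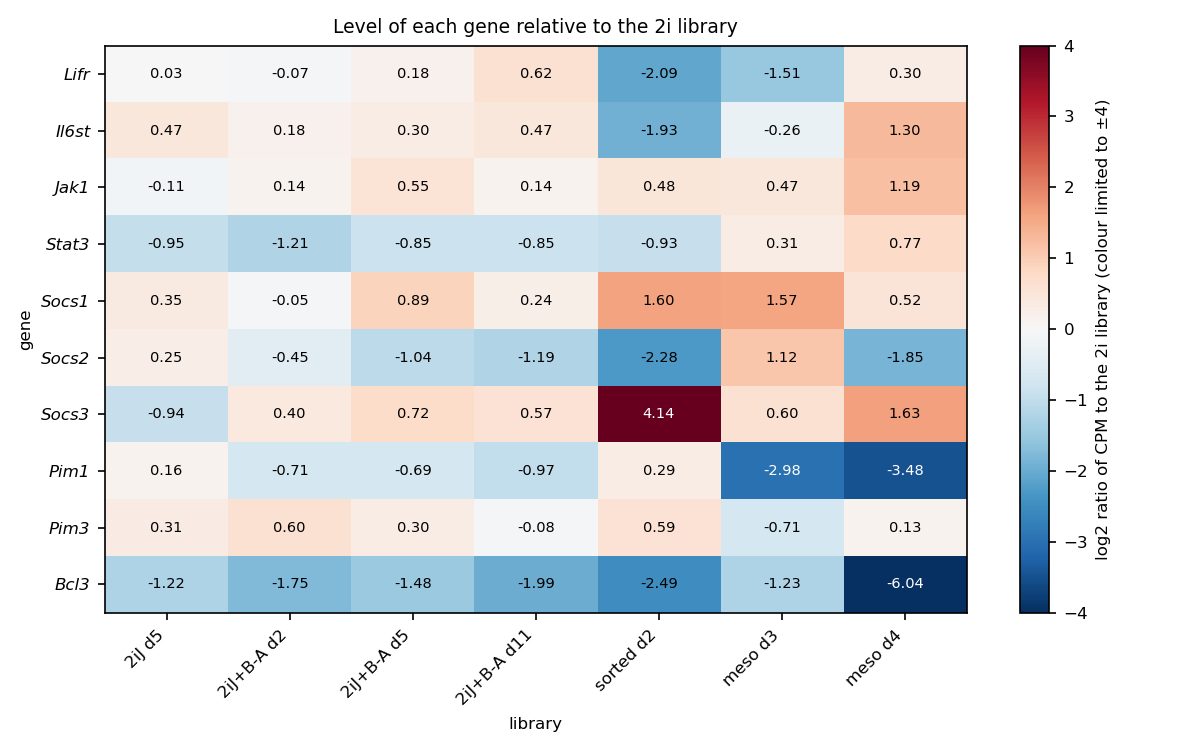
The log2 ratio of each gene's CPM to its CPM in the 2i library (rows, genes; columns, the 7 other libraries; d, day; colour limited to 4 in either direction). Stat3 and Bcl3 are negative in every unsorted library with the JAK inhibitor, Socs3 is negative in 2iJ alone, and the day 4 mesoderm value of Bcl3 rests on 2 counts.

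Genes known to respond to LIF and STAT3 in mESCs were read as a second view of the pathway's output. Of the 20 genes in this list 19 were tested, and edgeR called 0 of them in 2iJ against 2i, with 2 at an unadjusted p under 0.05. Tcfcp2l1 (now named Tfcp2l1), a transcription factor gene downstream of STAT3, had 687 CPM in 2i and 344 CPM in 2iJ (log2 fold change -1.02, SE 0.26, adjusted p = 1), and 262, 334 and 251 CPM in 2iJ+B-A. Klf4, another pluripotency factor gene, had 115 CPM in 2i and 58.6 CPM in 2iJ (-0.997, SE 0.31, adjusted p = 1). Unlike Tcfcp2l1 it was near the level of 2i in 2iJ+B-A, at 97.5, 148 and 134.5 CPM. Tbx3 had 256 CPM in 2i, 154 CPM in 2iJ and 210, 364 and 298 CPM in 2iJ+B-A. These genes did not move as a block: the median log2 fold change of the list in 2iJ was -0.03, against 0.00 over all genes.

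**Figure D3:**
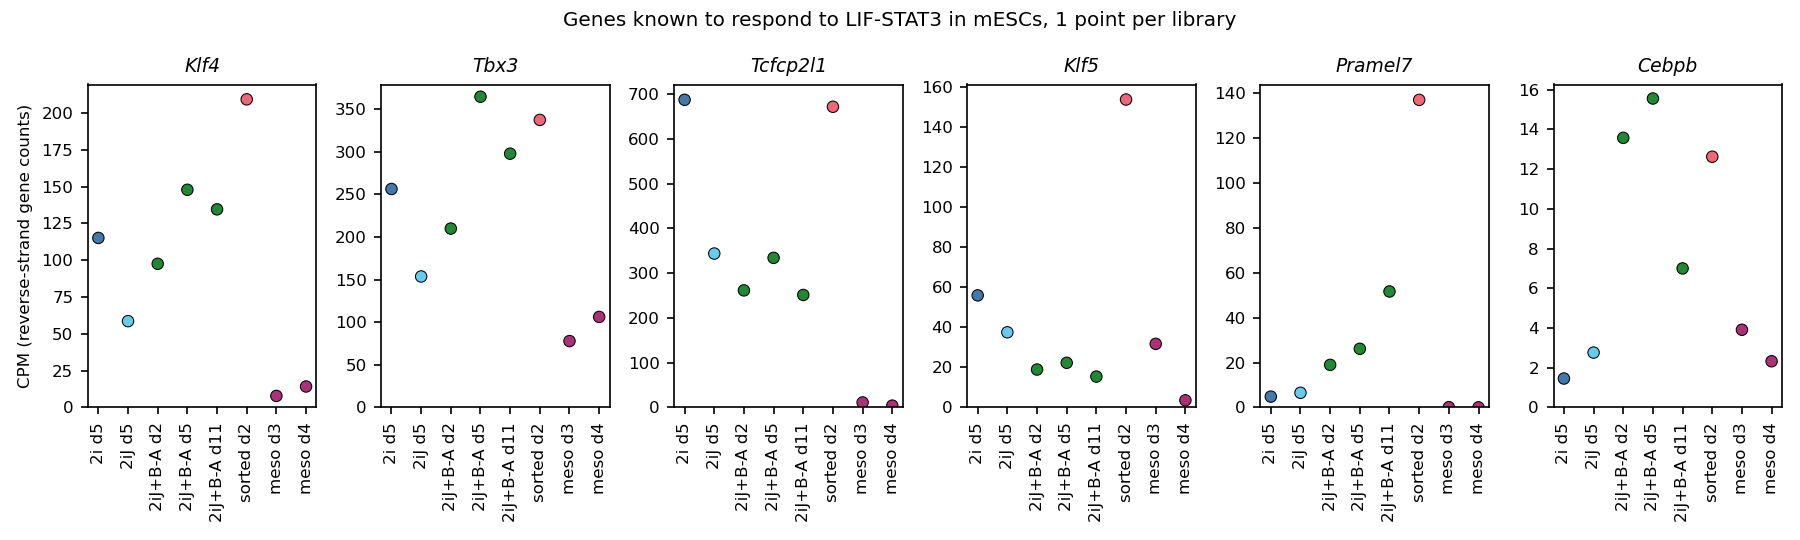
CPM of 6 genes known to respond to LIF and STAT3 in mESCs (1 point per library, linear axis from 0, coloured by group; d, day). Tcfcp2l1 is at 687 CPM in 2i and at 344 CPM or less in the 4 unsorted libraries with the JAK inhibitor, whereas Klf4 and Tbx3 are lowest among the mESC libraries in 2iJ (58.6 and 154 CPM).

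With 4 libraries against 1, 6 of the 19 had an unadjusted p under 0.05 and edgeR again called 0. Klf5 had 56.0 CPM in 2i, 37.6 CPM in 2iJ and 18.95, 22.3 and 15.4 CPM in 2iJ+B-A (log2 fold change -1.13, SE 0.25, edgeR adjusted p = 0.930). Cebpb went the other way, with 1.46 and 2.76 CPM in 2i and 2iJ and 13.6, 15.6 and 6.998 CPM in 2iJ+B-A (1.92, SE 0.61, adjusted p = 0.951). Of the 19, 5 were below 2i in all 4 libraries and 7 were above it, against the 18.3% and 27.6% of all genes given above.

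In the other lists of the pathway edgeR also called 0 genes in 2iJ against 2i, and 0 had an unadjusted p under 0.05. That does not show that their levels were alike. The largest log2 fold changes were -1.97 for Clcf1 (SE 0.93) and 1.44 for Cntfr (SE 0.67). Both are cytokine or receptor genes at 1.87 CPM or less in 2i and 2iJ. Among 8 tested cytokine and receptor genes, Lif itself had 7.18 CPM in 2i, 8.76 CPM in 2iJ and 14.2, 16.5 and 18.8 CPM in 2iJ+B-A, so the cells had the ligand's transcript in every mESC library. Over all 4 inhibitor libraries its log2 fold change was 0.69 (SE 0.33, edgeR adjusted p = 0.957). Cntfr, a receptor subunit for a related cytokine, had the list's largest value in that contrast, 1.78 (SE 0.59, adjusted p = 0.951). Among 9 further kinase and STAT genes the largest in that contrast was Stat6 at -0.61 (SE 0.43), and among 15 inhibitors, phosphatases and adaptors it was Pim2 at 0.60 (SE 0.42).

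Setting 2iJ+B-A against 2iJ addressed what BMP4 and ALK5 inhibition add under JAK inhibition. Pim1, Socs2 and Socs3 had unadjusted p-values under 0.05, and 0 of the 10 genes passed the edgeR threshold, with 0% of all 16235 genes called (1761 at an unadjusted p under 0.05). DESeq2 called 544 genes, and 1 of the 10, Pim1.

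Pim1 (ENSMUSG00000024014; chromosome 17, 29627757 to 29632390, plus strand) had 118 CPM in 2iJ and 65.1, 65.9 and 54.3 CPM in 2iJ+B-A on days 2, 5 and 11. All 3 libraries were below 2iJ and below the 106 CPM of 2i. The log2 fold change was -1.01 (SE 0.19, edgeR adjusted p = 0.179; DESeq2 adjusted p = 0.00772). Pim3 did not follow it, with 57.3 CPM in 2iJ and 70.1, 56.9 and 43.45 CPM in 2iJ+B-A, on both sides of the 2iJ value.

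Socs2 (ENSMUSG00000020027; chromosome 10, 94847996 to 94879814, minus strand), known for restraining growth hormone signalling, had 52.1 CPM in 2iJ and 32.0, 21.3 and 19.2 CPM in 2iJ+B-A on days 2, 5 and 11. Its log2 fold change was -1.17 (SE 0.33, edgeR adjusted p = 0.2996), and without the day 2 library it was -1.44 with an edgeR adjusted p of 0.0432. Socs3 went in the opposite direction, from 1.21 CPM to between 3.06 and 3.82 CPM, a log2 fold change of 1.43 (SE 0.52, adjusted p = 0.4001). Its ratio on day 5, 120 counts over 31, was 3.16 (exact counting interval 2.12 to 4.86). The estimates for the feedback genes therefore did not share a direction. With all 5 libraries in the fit none of them passed, and each is set against the single 2iJ library. Socs1 stayed between 1.06 and 2.035 CPM in all 5 unsorted mESC libraries.

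Among the 10 genes, 2 (Jak1 and Socs3) were above 2iJ and 4 (Il6st, Socs2, Pim1 and Bcl3) were at or below it in all 3 libraries of 2iJ+B-A, against 34.1% and 24.1% of all genes. Il6st is in that count by less than the counting error, with 121.8 CPM in both 2iJ and day 11. Stat3 was level, at 14.1 CPM in 2iJ and 14.0 ± 1.93 CPM (SD, n = 3) in 2iJ+B-A (log2 fold change -0.08, SE 0.29, edgeR adjusted p = 0.95). Trophectoderm markers moved with the same addition, 4 of 6 of them at an unadjusted p under 0.05 with a list median log2 fold change of 2.02, and a share of the culture becoming another cell type cannot be told apart from change within each cell in these bulk libraries. In the same way, fewer cells of a type and less RNA per cell cannot be told apart.

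Over days 2, 5 and 11 of 2iJ+B-A none of the 10 genes had a slope on log2(day) with an unadjusted p under 0.05. edgeR called 0% of 16961 genes (1004 at an unadjusted p under 0.05), and DESeq2 called 115, 0 of them from the 10. The largest slopes were -0.31 for Socs2 (SE 0.50), -0.29 for Pim3 (SE 0.18) and 0.27 for Lifr (SE 0.33), all in log2 units per doubling of the day. Lifr had 64.8, 77.3 and 104.5 CPM on days 2, 5 and 11, and Pim3 had 70.1, 56.9 and 43.45 CPM. With 1 library per day these orders have no replicate check.

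The sorted Cdx2-GFP-positive cells differed from unsorted 2iJ+B-A in both receptor genes and in some of the feedback and response genes. Lifr and Il6st, the receptor genes, fell, while the feedback gene Socs3 and the response gene Pim1 rose against unsorted 2iJ+B-A. These were 4 of the 10 genes, against 12.4% of 16459 genes called (6.84% higher and 5.51% lower).

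Socs3 had 807 counts or 40.7 CPM in the sorted library (Wilson 38.0 to 43.6), whereas the highest of the other 7 libraries had 7.17 CPM. The 3 unsorted 2iJ+B-A libraries had 3.43 ± 0.379 CPM (SD, n = 3). The log2 fold change was 3.63 (SE 0.31, edgeR adjusted p = 0.00460). Against the unsorted library of the same day the ratio was 13.3 (exact counting interval 10.5 to 17.1).

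Lifr (ENSMUSG00000054263; chromosome 15, 7079559 to 7147489, plus strand) had 15.95 CPM in the sorted library against 82.2 ± 20.3 CPM (SD, n = 3) unsorted. The log2 fold change was -2.31 (SE 0.34, edgeR adjusted p = 0.0155). Il6st (ENSMUSG00000021756; chromosome 13, 113265216 to 113297068, plus strand) had 23.1 CPM against 110.2 ± 11.05 CPM, a log2 fold change of -2.20 (SE 0.22, adjusted p = 0.00705). For both receptor genes the sorted library was the lowest of all 8. Pim1 had 130 CPM against 61.75 ± 6.50 CPM (log2 fold change 1.13, SE 0.19, adjusted p = 0.0211). The sorted value is near its 106 and 118 CPM in 2i and 2iJ, and the ratio to the same day was 2.00 (1.88 to 2.13).

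Of the other 6 genes, Socs2 had the lowest value of the 8 libraries, 8.99 CPM against 24.1 ± 6.85 CPM (SD, n = 3; log2 fold change -1.37, SE 0.40, edgeR adjusted p = 0.0739). Socs1 had 3.33 CPM against 1.47 ± 0.508 CPM (1.24, SE 0.56, adjusted p = 0.182). The intracellular components Jak1 and Stat3 were close to the unsorted cells. Jak1 had 74.3 CPM against 65.3 ± 11.15 CPM (0.25, SE 0.22, adjusted p = 0.483) and Stat3 had 14.3 CPM against 14.0 ± 1.93 CPM (0.09, SE 0.29, adjusted p = 0.861). Pim3 was at 0.34 (SE 0.30) and Bcl3 at -0.70 (SE 0.59), the latter from 15 counts, with 21.1% of the strand-assigned counts at that gene on the other strand.

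Other genes of the pathway were called in both directions, to be read against the 12.4% of all genes called in this comparison. Among LIF and STAT3 responsive genes 4 of 19 rose and 0 fell (list median log2 fold change 0.63, against -0.06 over all genes). Klf5, also a trophectoderm gene in the embryo, had 154 CPM against 15.4 to 22.3 CPM (3.08, SE 0.23, edgeR adjusted p = 0.00311), and Tcfcp2l1, also expressed in that lineage, had 672 CPM against 251 to 334 CPM (1.31, SE 0.20, adjusted p = 0.0169). Fos (2.61, SE 0.50) and Pramel7 (2.14, SE 0.48) were the others. Among inhibitors, phosphatases and adaptors 2 of 15 rose, and 1 fell. Cish, a suppressor gene best known as a STAT5 target, had 23.2 CPM against 0.684 to 2.10 CPM (3.96, SE 0.59, adjusted p = 0.0164), Pias4 rose by 0.95 (SE 0.17) and Pim2 fell by 1.98 (SE 0.47). Of the cytokines and receptors 1 of 8, the interleukin 6 receptor gene Il6ra, rose (2.59, SE 0.43, adjusted p = 0.0201), and of the kinases and STATs Tyk2 rose (0.94, SE 0.22) and Stat4 fell (-1.66, SE 0.36).

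Other features of this library moved with these differences, and their part in them was not tested. The sorted library was the only one from the reporter line and the only one sorted, so line and sort cannot be told apart from the Cdx2-positive state. It had the high unmapped share given above. Fibroblast or feeder markers, 6 genes, summed to 110 CPM there, against 8.07 to 15.0 CPM in the unsorted mESC libraries and 15.8 and 16.5 CPM in the mesoderm progenitors; 4 of 6 were called, among them Col1a1 (4.50, SE 0.70, edgeR adjusted p = 0.0177), and 0 of the 6 were at 0 counts. Blood markers, 4 genes, summed to 36.2 CPM against 8.48 to 23.9 CPM in the unsorted mESC libraries, with Ptprc at 0 and Cd68 alone at 35.8 CPM of that sum. The spread came from the 3 unsorted days alone: with all 8 libraries in the fit 1 of the 10 genes, Socs3, was called (Lifr adjusted p = 0.116, Il6st 0.0860, Pim1 0.0507), and at day 2 of a slope over days 0 were (adjusted p = 0.102 for Socs3). Leaving out the day 5 library took Pim1 to an adjusted p of 0.0662.

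**Figure D4:**
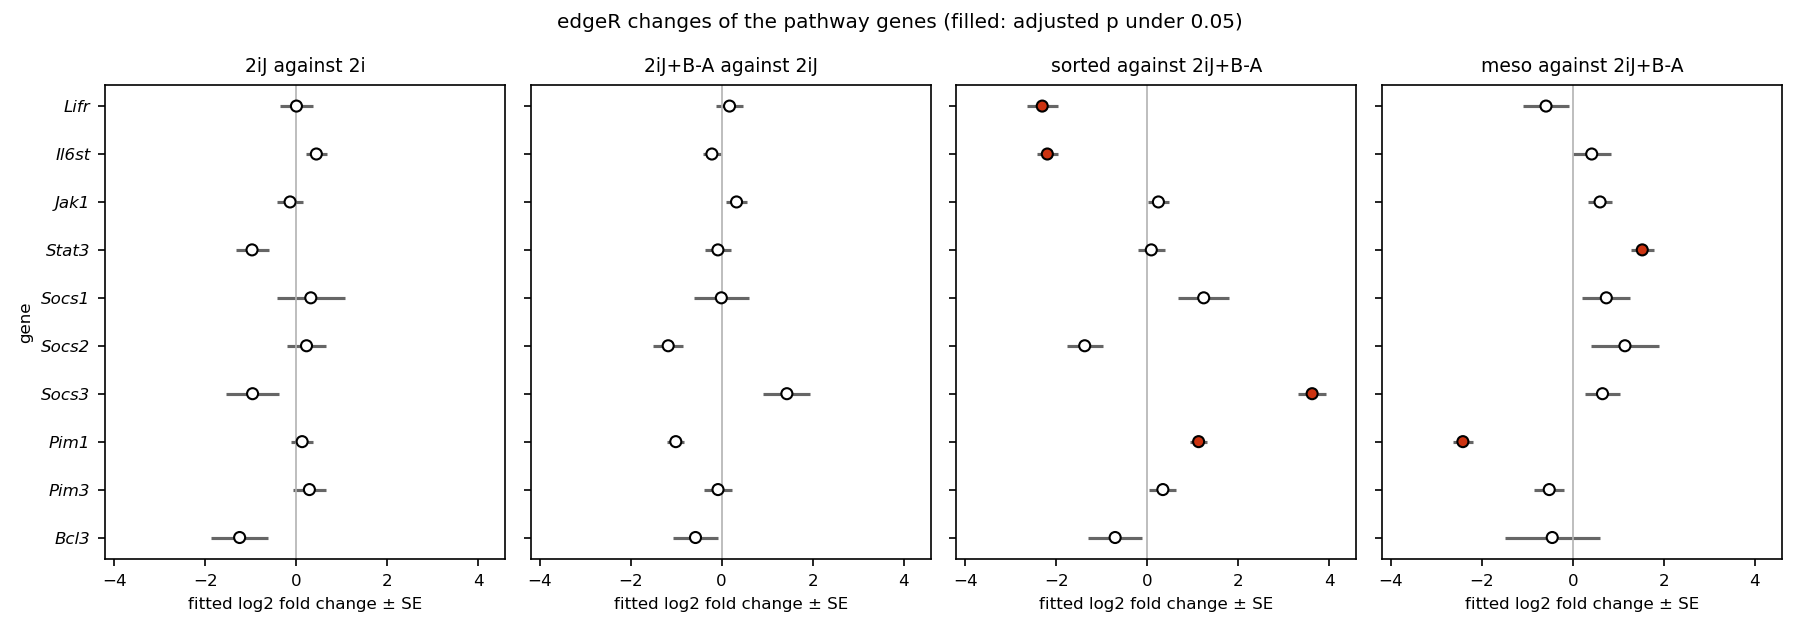
Fitted log2 fold change of each gene (points) with its standard error (lines) in 4 edgeR comparisons, filled where the adjusted p was under 0.05. In the 2 comparisons on the left no point is filled, in the sorted cells Lifr, Il6st, Socs3 and Pim1 are, and in the mesoderm progenitors Stat3 and Pim1 are.

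As a description, genes with a pattern like that of Socs3 were ranked by the Pearson correlation of log2 CPM among 9457 genes with a mean of at least 10 CPM. Over the 6 mESC libraries the highest were Tcfeb (now named Tfeb; r = 0.998), Mkln1 (0.9945), Ckmt1 (0.9935), Tax1bp1 (0.993) and Ugp2 (0.992). Over all 8 libraries they were Snx1 (0.985), Mkln1 (0.980), Nck2 (0.9765), Rassf8 (0.973) and Rnf11 (0.968). Each of them had its highest CPM in the sorted library, so the ranking rests largely on that library, with its own line and depth. Of the other pathway genes 7 met that minimum and none of these was among the 10 listed places, while Socs1 and Bcl3 were below it and were not ranked.

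In the mesoderm progenitors Stat3 rose and Pim1 fell against 2iJ+B-A, 2 of the 10 genes, against 27% of 16961 genes called (11.5% higher and 15.5% lower), so the share called was not above the background. Stat3 had 33.6 and 46.1 CPM on days 3 and 4 against 11.7 to 15.1 CPM in 2iJ+B-A, a log2 fold change of 1.53 (SE 0.25, edgeR adjusted p = 0.00868). Both libraries were also above the 27.1 CPM of 2i. Pim1 had 13.45 and 9.53 CPM against 54.3 to 65.9 CPM, a log2 fold change of -2.42 (SE 0.22, adjusted p = 0.00203), and every mESC library was above both. The culture medium, the additions and the cell type all differ between these groups and cannot be told apart.

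The 2 mesoderm libraries lay far apart for the other genes. Lifr was at 24.0 CPM on day 3 and at 83.9 CPM on day 4, a ratio of 3.50 (exact counting interval 3.22 to 3.80), and Il6st had 73.8 and 217 CPM, a ratio of 2.935 (2.80 to 3.08). Both chains of the LIF receptor were thus higher on day 4, as was Jak1 (ENSMUSG00000028530; chromosome 4, 100824972 to 100937887, minus strand), with 73.8 and 122 CPM. Socs2 went the other way, from 94.9 to 12.1 CPM, 7.84-fold lower on day 4 (7.04 to 8.75). Bcl3 had 57 counts or 1.81 CPM on day 3 and 2 counts on day 4, a ratio of 28.05 with an interval of 7.42 to 237. Socs1 had 3.275 and 1.58 CPM, Socs3 had 3.50 and 7.17 CPM and Pim3 had 28.2 and 50.5 CPM. With 1 library per day and a treatment begun between them, these are differences between libraries only.

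The other 8 of the 10 genes did not pass. Their log2 fold changes against 2iJ+B-A were 0.60 for Jak1 (SE 0.26, edgeR adjusted p = 0.134), -0.59 for Lifr (SE 0.52), 0.42 for Il6st (SE 0.42), 0.74 for Socs1 (SE 0.53), 1.15 for Socs2 (SE 0.74), 0.65 for Socs3 (SE 0.39), -0.52 for Pim3 (SE 0.33) and -0.45 for Bcl3 (SE 1.05). Without the day 3 library 5 genes were called, with Il6st (1.05), Jak1 (0.98) and Bcl3 (-4.15, resting on 2 counts) added, and without the day 4 library 4 were, with Lifr (-1.73) and Socs2 (2.02) added.

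The other lists of the pathway also had genes called in both directions, to be read against the 27% of all genes called in this comparison. Of 19 LIF and STAT3 responsive genes 4 rose and 6 fell. Klf4 fell, from 97.5 to 148 CPM in 2iJ+B-A to 7.85 and 14.25 CPM (-3.50, SE 0.34, edgeR adjusted p = 0.00243), and Tcfcp2l1 fell to 11.3 and 4.135 CPM (-5.18, SE 0.48, adjusted p = 0.00212). Tbx3, Mcl1, Cebpb and Pramel7 fell too, the last to 0.127 and 0.0646 CPM. The growth response genes Egr1 (3.58, SE 0.62), Junb (1.82, SE 0.45) and Myc (1.09, SE 0.29) rose, as did Lrrc8a (1.08, SE 0.27). Of 9 kinases and STATs, Jak2 (1.53, SE 0.30, adjusted p = 0.0144), Stat5a (1.38, SE 0.38) and Stat5b (1.63, SE 0.38) rose alongside Stat3, and Stat4 fell (-4.04, SE 0.36). Of 8 cytokines and receptors Cntfr rose (2.70, SE 0.43), Il6ra fell (-2.46, SE 0.57) and Osm, which encodes a cytokine that shares gp130, fell to 0 counts in both libraries from 1.39 to 5.14 CPM in 2iJ+B-A (adjusted p = 0.00851; 3 counts would be 0.0954 and 0.0969 CPM). Of 15 inhibitors, phosphatases and adaptors 3 rose (Socs5, Ptpn1 and Ptpn11, the phosphatase SHP2) and 3 fell (Gab1, Pias2 and Pias4).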

How the data were processed

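Poly-A RNA libraries were prepared with a strand-specific kit and sequenced as read pairs. The authors trimmed adapters with cutadapt and aligned reads to NCBIM37 with STAR 2.4.2a, and deposited raw gene counts of read pairs; the annotation release was not given in the sources used here. The study adjusted its expression values for experiment days, and no such adjustment is in these counts. Reverse-strand counts were used, and between 5.03% and 6.47% of strand-assigned counts lay on the other strand. The 10 genes were matched to identifiers by GENCODE vM1 symbol, and each passed the filter in every fit.

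Genes reaching 10 counts in 2 or more libraries were fitted in edgeR 4.0.16 (R 4.3.3) with TMM scaling, the quasi-likelihood test and Benjamini-Hochberg adjustment over all genes of the fit, at a threshold of 0.05. Comparisons among unsorted mESC libraries used those 5 libraries (2 residual degrees of freedom, all from the days of 2iJ+B-A), the sorted comparison 6 and the mesoderm comparison and the slope 8. Each SE is the log2 fold change over the root of its F statistic. DESeq2 1.42.0 was an alternative. The fits of 2iJ+B-A against 2iJ, of the sorted cells and of the mesoderm progenitors were run on simulated counts. Those counts had large changes and less spread than the data, so they do not show how the fits perform here. The comparisons with 2i and the slope were not simulated. Wilson and exact intervals are at 95%.

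The 10 genes and the lists were chosen with earlier results of these data known. Named list genes passed the threshold in a comparison or were among the 5 largest changes of their list in 2iJ against 2i or in the JAK inhibitor libraries against 2i with at least 10 counts in the higher library. The label codes start with a different letter for the mesoderm progenitors, the sorted and the unsorted mESC libraries, so a batch along those codes cannot be told apart from the groups. A further gene list is not reported here.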

Additional observations from a re-analysis of the deposited data

How the results depend on the processing

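No paired analysis was possible because the labels give no replicate numbers that groups share. The single 2i, 2iJ and sorted libraries have no replicate, which limits the precision of every comparison that uses them, and the days of 2iJ+B-A supply the spread. Of 876 alternative values, 23 changed sign, all of them fold changes of single pathway genes that had not passed the threshold; the cause of these and of the changed counts was not tested. In 2iJ against 2i the log2 fold changes kept their sign in all 11 alternatives, at -0.97 to -0.94 for Stat3 and -1.34 to -1.21 for Bcl3. Every one of these alternatives compared the same single 2i library with the same single 2iJ library. The constant sign and narrow ranges therefore cannot show whether the differences would recur in other libraries.

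Counts of genes called also moved with no count filter (8 for JAK inhibitor libraries against 2i, 181 for 2iJ+B-A against 2iJ, 3076 for sorted against 2iJ+B-A, 2 for the slope) and with DESeq2 (87, 544, 3068 and 115, and 1 pathway gene for 2iJ+B-A against 2iJ). For the sorted comparison, all 8 libraries in the fit gave 919 genes and 1 pathway gene, and the slope at day 2 gave 27 and 0. Leaving out each library in turn gave 0 to 9 genes for JAK inhibitor libraries against 2i (9 without day 11), 0 to 269 genes and 0 to 1 pathway genes for 2iJ+B-A against 2iJ (269 without day 2, 135 without day 11), and 624 to 3697 genes and 3 to 5 pathway genes for the sorted comparison (3697 without day 2, 624 without day 5). It gave 2019 to 4538 genes and 2 to 5 pathway genes for the mesoderm comparison (2019 without day 5 and 2666 without day 11 of 2iJ+B-A), and 0 to 469 genes for the slope (379 without mesoderm day 3, 469 without day 4). Socs2 in the sorted comparison passed with no filter (adjusted p = 0.0323), with DESeq2 (0.00822), without day 2 (0.0270) and without day 11 (0.0359).

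Among single genes, Socs1 in 2iJ+B-A against 2iJ turned from -0.01 to 0.0686 with library totals, 0.0048 with no filter, 0.0019 with unstranded counts and 0.00092 at day 5 of the slope. The slope of Jak1 turned from -0.00097 to 0.0048 with RLE scaling or DESeq2 and 0.0091 with library totals. With each library left out, JAK inhibitor libraries against 2i ranged over -0.024 to 0.075 for Jak1 and -0.0076 to 0.18 for Lifr. In 2iJ+B-A against 2iJ the ranges were -0.29 to 0.17 for Socs1, -0.14 to 0.021 for Stat3, -0.036 to 0.31 for Lifr and -0.27 to 0.084 for Pim3. Stat3 in the sorted comparison ranged from -0.00012 to 0.15. In the mesoderm comparison they were -1.73 to 0.10 for Lifr, -0.93 to 2.02 for Socs2, -0.53 to 1.05 for Il6st and -4.15 to 0.54 for Bcl3. For the slope they were -0.33 to 0.25 for Jak1, -0.54 to 0.65 for Socs1, -0.11 to 0.18 for Socs3 and -0.42 to 0.15 for Bcl3.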
